A study of Homo sapiens with 4 samples.

Results

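Interferon-stimulated genes are the genes that cells switch on when type I interferons bind their receptor. A list of 49 genes was drawn up around this response, and they are called members below. It covers the receptor, the sensors that set off interferon production, the transcription factors and the antiviral effectors. Some members, such as IFNAR1, MAVS and IRF3, are listed as parts of the pathway and not as genes defined by that induction. The list was read by gene name from the 51103 genes of each table, and every name was found. The cells were labelled SCC-15, a human line of oral squamous cell carcinoma. One group carried a lentivirus for REEP6 overexpression (2 libraries) and the other was a negative control (2 libraries). REEP6 is a membrane protein of the endoplasmic reticulum. Polyadenylated RNA was taken after 48 hours, per the labels, which do not say what event the 48 hours follow. What the control cells received, and whether each line was a clone or a pool, is not given in the sources used here. The labels do not state whether replicates came from different cultures. A p-value here therefore measures no more than the spread among these 4 libraries, and that spread may be technical. The labels name no interferon treatment in either group.

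Type I interferons bind a receptor of IFNAR1 and IFNAR2, and the kinases JAK1 and TYK2 then phosphorylate transcription factors such as STAT2. With IRF9, STAT2 is part of a complex that binds the interferon-stimulated response element (ISRE) in the promoters of target genes. Interferon itself is made after RNA sensors such as RIG-I and MDA5, or the DNA sensor cGAS, signal through MAVS or STING to the kinase TBK1 and to IRF3 and IRF7. Epithelial cells keep low levels of many of these products without added interferon.

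With REEP6 overexpression the members that changed most were lower. SAMD9L, IFI44, IFIT2 and IFIT3 fell to between 25.9% and 37% of the control level, and SAMD9, OASL, HERC5, DDX58 (RIG-I), IFIT1 and IFI16 also fell. OAS3 rose 1.6-fold, while its relative OASL fell. MAVS, ADAR and EIF2AK2 passed in the higher direction with changes of 1.23- to 1.25-fold. Levels are in FPKM (counts scaled by gene length and library total), which can be compared between genes. A gene was tested if it reached 1 FPKM in at least 2 of the 4 libraries, and 34 of the 49 members did. Of these, 14 (41.2%) were lower and 4 (11.8%) were higher at a Benjamini-Hochberg adjusted p of 0.05 in edgeR's quasi-likelihood test. Over all 13077 tested genes 14.2% were lower and 10.9% higher, so the share of members that rose was near that of all genes. The median log2 fold change was -0.25 over the tested members and -0.01 over all tested genes. None of the tested members passed the filter in 1 group only.

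**Figure D1:**
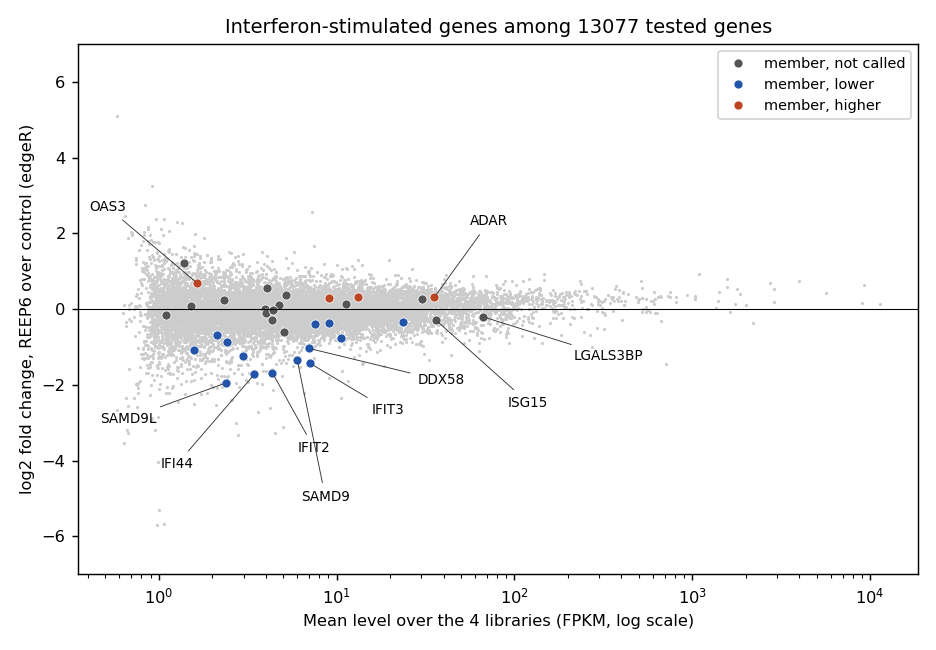
The mean level of each tested gene over the 4 libraries (FPKM, log axis) is plotted against its log2 fold change, REEP6 over control. Grey points are all 13077 tested genes and large points are the 34 tested members, coloured by call. Members that fell lie mostly between 1 and 15 FPKM. The abundant members ISG15 and LGALS3BP lie at -0.29 and -0.21 and were not called.

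The libraries held 12856256 to 15208629 counts assigned to genes. REEP6 itself was at 11.1 and 12.6 FPKM in the controls and 20 and 20.9 FPKM with REEP6, a rise of 1.76-fold (log2 fold change 0.82 ± 0.108 SE, edgeR adjusted p 0.00119). The squamous label was checked against 15 epithelial markers, of which 9 did not reach the filter. KRT5, KRT14, KRT6A, KRT16, KRT17, TP63, CDH1 and SFN had at most 14 counts in any library. The keratins and TP63 that define stratified squamous epithelium were thus at or near 0, as was CDH1, with at most 1 count. These markers do not bear out the squamous label, and the identity of the cells was not tested. Some other epithelial genes of the list were abundant, with KRT8 at 164 to 183 FPKM, KRT18 at 178 to 231 FPKM, PERP at 170 to 208 FPKM, ITGA6 at 43.3 to 48.5 FPKM and ITGB4 at 13.1 to 18.9 FPKM. EPCAM was low, at 0.957 to 2.36 FPKM, and DSP, at 0.0771 to 0.484 FPKM, did not reach the filter. Without a filter both were higher with REEP6 (log2 fold change 0.88 and 1.93, edgeR adjusted p 0.0157 and 4.59e-07). KRT18 (log2 fold change 0.36) and ITGB4 (0.44) were called higher with REEP6, and 0 of the list lower, by edgeR, DESeq2 or at an unadjusted edgeR p of 0.05. Among all tested genes edgeR called 10.9% higher and 14.2% lower. The 12 leukocyte markers summed to 2.91 and 4.09 FPKM in the controls and 3.22 and 2.6 FPKM with REEP6. PTPRC had at most 5 counts in a library and CLEC4C had 0 in all of them. The 8 endothelial markers summed to 0.577 and 0.426 FPKM in the controls and 0.178 and 0.146 FPKM with REEP6. The 10 fibroblast markers summed to 36.6 and 34.5 FPKM in the controls and 18.3 and 18.1 FPKM with REEP6. The 4 of them that were tested (COL3A1, LUM, PDGFRB and POSTN) fell, POSTN having reached 1 FPKM in the controls only. PDGFRA did not reach the filter and went the other way, from 0.663 and 0.709 FPKM to 0.986 and 1.06 FPKM (log2 fold change 0.62, edgeR adjusted p 0.0338 without a filter), while DCN and THY1 had at most 2 counts and FAP had 0. In bulk RNA, fewer cells of a type and less RNA per cell cannot be told apart, and the part of these markers in the results below was not tested.

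The ISRE core was found in promoters of members that fell, rose or were not called. The core searched was GAAA, any 2 bases and GAAA again, on either strand, within the window of 250 bases before to 50 after a RefSeq transcript start (GRCh38.p14). Windows of 5 members are shown, 4 that fell with the smallest p among those with a match and OAS3, the member with the largest called rise, so that the same element can be seen on both sides. They run 5′ to 3′ on the gene's strand, with matches to the core, or to its reverse complement, in capitals. The windows are chr7:93117930-93118229 (minus strand) for SAMD9, chr10:89327747-89328046 (plus) for IFIT3, chr1:78649539-78649838 (plus) for IFI44, chr4:88456869-88457168 (plus) for HERC5 and chr12:112938224-112938523 (plus) for OAS3.
SAMD9: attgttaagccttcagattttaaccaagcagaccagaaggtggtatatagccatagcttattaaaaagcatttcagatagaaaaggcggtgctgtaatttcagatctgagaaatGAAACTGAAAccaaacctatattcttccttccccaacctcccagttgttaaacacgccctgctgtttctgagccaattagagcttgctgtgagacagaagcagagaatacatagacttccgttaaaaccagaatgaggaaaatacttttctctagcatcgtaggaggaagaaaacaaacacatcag
IFIT3: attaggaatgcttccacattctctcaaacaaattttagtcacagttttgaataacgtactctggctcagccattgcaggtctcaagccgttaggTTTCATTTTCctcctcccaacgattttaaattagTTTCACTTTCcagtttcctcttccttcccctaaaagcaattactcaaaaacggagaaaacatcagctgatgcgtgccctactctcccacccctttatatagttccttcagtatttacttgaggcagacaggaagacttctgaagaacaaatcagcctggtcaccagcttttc
IFI44: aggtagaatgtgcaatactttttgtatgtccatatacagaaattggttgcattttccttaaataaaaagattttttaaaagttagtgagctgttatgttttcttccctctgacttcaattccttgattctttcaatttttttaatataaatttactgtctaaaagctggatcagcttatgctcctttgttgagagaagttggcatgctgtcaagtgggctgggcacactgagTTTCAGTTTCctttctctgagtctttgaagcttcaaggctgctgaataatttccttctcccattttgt
HERC5: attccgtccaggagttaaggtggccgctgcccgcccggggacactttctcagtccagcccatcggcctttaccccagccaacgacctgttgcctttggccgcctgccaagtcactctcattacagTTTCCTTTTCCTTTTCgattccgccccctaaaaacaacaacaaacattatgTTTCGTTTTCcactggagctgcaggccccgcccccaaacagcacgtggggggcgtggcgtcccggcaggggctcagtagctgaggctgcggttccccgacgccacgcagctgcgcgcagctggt
OAS3: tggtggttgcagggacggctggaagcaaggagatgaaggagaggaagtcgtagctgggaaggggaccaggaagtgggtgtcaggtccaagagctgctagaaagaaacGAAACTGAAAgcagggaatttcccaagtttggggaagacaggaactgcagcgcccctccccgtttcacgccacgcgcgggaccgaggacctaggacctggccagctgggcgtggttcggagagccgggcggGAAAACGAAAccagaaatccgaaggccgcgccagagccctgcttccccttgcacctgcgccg
In these windows SAMD9, IFI44 and OAS3 share the core GAAACTGAAA, which IFI44 carries as the reverse complement. In SAMD9 it begins 136 bases before the start, and in OAS3 143 bases before it. IFIT3 has 2 matches in this window, HERC5 has 3, of which the pair farther from the start overlap, and OAS3 has a further match, GAAAACGAAA, 12 bases before the start.

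RefSeq windows were matched for 39 of the 49 members, DDX58 under its current symbol RIGI. At least 1 window held the ISRE core in 24 of the 39 (61.5%), against 4.38% of all 27305 genes with a window. By call, the core was present in 5 of 11 members that fell, 2 of 4 that rose, 11 of 13 that were tested and not called and 6 of 11 that were not tested. IFIT1 had 2 matches, and EIF2AK2 had 1 that begins 6 bases before its start. SAMD9L, DDX58, IFI16 and SP100 fell with a smaller p than HERC5 and had no match in their windows. IFIT2 and OASL, also with a smaller p than HERC5, had no matched window. A second motif, the gamma-activated site, TTC and GAA with any 3 bases between them, was found in 9 of the 39 members (23.1%) and in 9.38% of all genes, and in 0 of the 15 called members with a window. These matches describe the letters of the windows only.

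**Figure D2:**
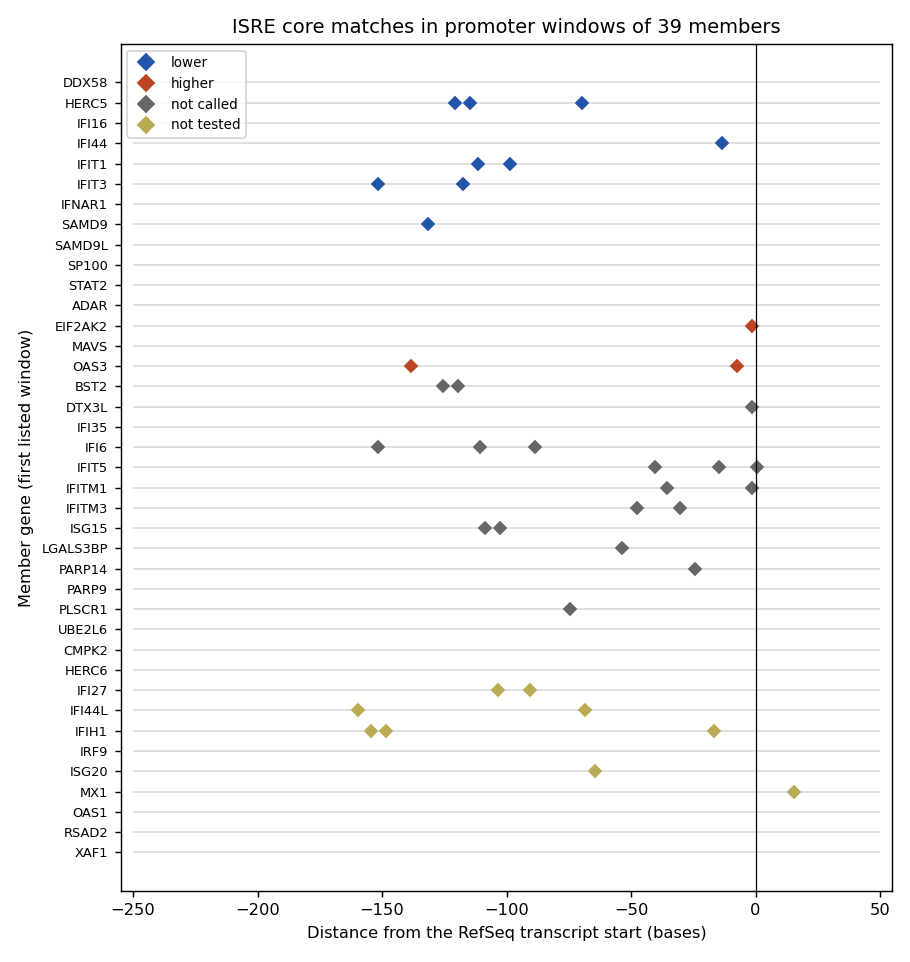
Matches to the ISRE core in the RefSeq promoter window listed first for each of 39 members, by distance of the match's centre from the transcript start in bases. Each row is a gene, coloured by its call (lower, higher, not called, not tested). In these windows 22 members have a match, and all matches but that of MX1 begin before the start, between 164 bases (IFI44L) and 4 bases (IFIT5) from it.

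The interferon genes themselves were close to silent. Of 21 ligand genes (type I, type II and type III), 17 had 0 counts in all 4 libraries, which allows up to 3 counts, or 0.197 to 0.233 CPM (counts scaled to the library total), in a library. IFNB1, the type I interferon that epithelial cells make first, was among the 17. The keratinocyte interferon IFNK was also at 0, and IFNE, a type I interferon of epithelium, had the most reads, with counts of 5 and 19 (control) and 8 and 15 (REEP6). None of the ligand genes reached the filter.

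The receptor chains were unequal. IFNAR1 (ENSG00000142166, chromosome 21, 33324477 to 33359862, plus strand), the low-affinity chain of the type I receptor, was at 9.6 and 11 FPKM in the controls and 7.82 and 7.83 FPKM with REEP6. Both REEP6 libraries were below both controls (log2 fold change -0.37 ± 0.102 SE, edgeR adjusted p 0.0258). IFNAR2, the high-affinity chain, lies upstream on the same strand and had counts of 6 and 6 (control) and 9 and 1 (REEP6), at most 0.147 FPKM. Of the distinct 50-base words of IFNAR2's GENCODE transcripts, 77.5% also occur in transcripts of other genes, 41.2% in the read-through gene AP000295.1, which had 0 counts in each library. How the authors' counting treated reads that match several genes is not given in the sources used here. The IFNAR2 level is thus uncertain, and the part of this sharing was not tested. IL10RB, the receptor chain encoded beside them, had counts of 13 and 9 (control) and 10 and 9 (REEP6).

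Among the transcription factors STAT2 and IRF3 were lower. STAT2 (ENSG00000170581, chromosome 12, 56341597 to 56360155, minus strand), a part of the ISRE-binding complex, was at 8.37 and 8.89 FPKM in the controls and 6.25 and 6.76 FPKM with REEP6 (log2 fold change -0.38 ± 0.0992 SE, edgeR adjusted p 0.0211). IRF3 (ENSG00000126456, chromosome 19, 49659569 to 49665875, minus strand), the constitutive factor that induces IFNB1, was at 28.8 and 24.7 FPKM in the controls and 21.9 and 19.2 FPKM with REEP6 (log2 fold change -0.35 ± 0.109 SE, edgeR adjusted p 0.0429). The REEP6 libraries were below the controls for each of these genes, by less than 1.5-fold. IRF3 shares 15.1% of its words with other genes, mainly its neighbour BCL2L12. IRF7, the factor that amplifies interferon production, was at 4.03 and 4 FPKM in the controls and 4.2 and 3.72 FPKM with REEP6, with overlapping groups (log2 fold change 0.01 ± 0.173 SE, edgeR adjusted p 0.981). IRF9 had counts of 20 and 37 (control) and 11 and 23 (REEP6) and did not reach the filter. It shares 43.8% of its words with other genes, mainly AL136295.5, which itself had at most 20 counts.

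The calls of IFNAR1, STAT2 and IRF3 were not stable. With DESeq2 the adjusted p was 0.0592 for IFNAR1, 0.0615 for STAT2 and 0.0611 for IRF3, and limma on log2(FPKM + 1) called none of them (limma adjusted p 0.0636, 0.0506 and 0.0899). Without control replicate 2 the IFNAR1 change was -0.24 (edgeR adjusted p 0.154) and that of STAT2 -0.31 (0.0822), and without control replicate 1 the IRF3 change was -0.24 (0.154). Leaving out REEP6 replicate 1 ended the calls of IFNAR1 (0.0741) and STAT2 (0.139), and leaving out REEP6 replicate 2 those of IFNAR1 (0.0775) and IRF3 (0.237). With a GC correction the IFNAR1 change was -0.22 (0.15).

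Genes of nucleic acid sensing moved in both directions, with DDX58 and IFI16 lower. DDX58 (ENSG00000107201, chromosome 9, 32455705 to 32526324, minus strand) encodes RIG-I, the helicase that detects RNA with a triphosphate end. It was at 9.7 and 9.21 FPKM in the controls and 4.53 and 4.51 FPKM with REEP6. The REEP6 libraries had about the same level as each other, and both were well below the controls (log2 fold change -1.04 ± 0.114 SE, edgeR adjusted p 0.000628). IFIH1, which encodes MDA5, the sensor of long double-stranded RNA, did not reach the filter, with counts of 56 and 88 (control) and 33 and 38 (REEP6). DHX58, which encodes the regulator LGP2, had counts of 15 and 26 (control) and 13 and 4 (REEP6). IFI16 (ENSG00000163565, chromosome 1, 158999968 to 159055155, plus strand), a nuclear sensor of DNA, was at 13.3 and 13.5 FPKM in the controls and 7.26 and 8.12 FPKM with REEP6, so the REEP6 libraries were lower by 1.71-fold (log2 fold change -0.77 ± 0.0975 SE, edgeR adjusted p 0.000991).

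The other sensor-related members were higher. MAVS (ENSG00000088888, chromosome 20, 3846799 to 3876123, plus strand), the mitochondrial adaptor through which RIG-I and MDA5 signal, was at 12.6 and 11.2 FPKM in the controls and 15.6 and 13.6 FPKM with REEP6 (log2 fold change 0.32 ± 0.102 SE, edgeR adjusted p 0.0445). EIF2AK2 (ENSG00000055332, chromosome 2, 37099210 to 37157065, minus strand) encodes PKR, the kinase that halts translation on double-stranded RNA, and was at 8.65 and 7.83 FPKM in the controls and 10.2 and 9.61 FPKM with REEP6 (log2 fold change 0.30 ± 0.0932 SE, edgeR adjusted p 0.0441). ADAR (ENSG00000160710, chromosome 1, 154582057 to 154628013, minus strand), which edits adenosine to inosine in double-stranded RNA, was at 33.1 and 30.8 FPKM in the controls and 38.6 and 39.1 FPKM with REEP6 (log2 fold change 0.31 ± 0.0827 SE, edgeR adjusted p 0.0237). Both REEP6 libraries were above both controls for each gene. With FPKM scaled to equal sums their log2 fold changes were 0.19, 0.16 and 0.18 and their calls ended (edgeR adjusted p 0.242, 0.276 and 0.205), and that scaling shifted the median of all genes to -0.14. In limma on log2(FPKM + 1), 0 of the members were higher at an adjusted p of 0.05 and 7 at an unadjusted p of 0.05. Among all 13077 tested genes that limma fit called 634 higher. The edgeR adjusted p of MAVS, EIF2AK2 and ADAR was 0.108, 0.122 and 0.072 without control replicate 2 and 0.328, 0.255 and 0.105 without REEP6 replicate 1, where the MAVS change was 0.21. Without REEP6 replicate 2 it was 0.0747 for EIF2AK2 and 0.107 for ADAR. Under edgeR's TMM scaling 14 members were lower and 4 higher, and with equal FPKM sums 16 were lower and 1, OAS3, was higher. Over all genes equal sums gave 2824 lower and 661 higher, against 1854 and 1422.

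**Figure D3:**
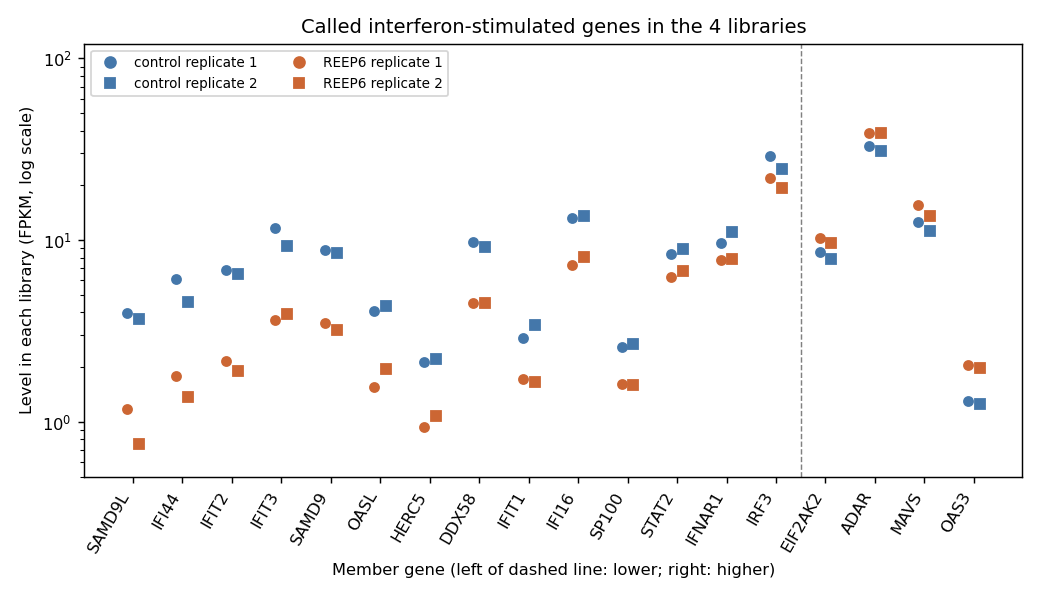
Level of the 18 called members in each library (FPKM, log axis), ordered by log2 fold change within each direction. Blue points are controls and orange points are REEP6 libraries, with circles for replicate 1 and squares for replicate 2. SAMD9L, at 3.95 and 3.69 FPKM in the controls, was at 1.18 and 0.759 FPKM with REEP6, the widest gap among them, while ADAR, at the top right, was between 30.8 and 39.1 FPKM throughout.

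The IFIT genes bind foreign RNA and block its translation, and lie together on chromosome 10 over 137 kb. IFIT2 (ENSG00000119922, chromosome 10, 89283694 to 89309276, plus strand) was at 6.83 and 6.53 FPKM in the controls and 2.17 and 1.91 FPKM with REEP6, a fall of 3.21-fold (log2 fold change -1.68 ± 0.154 SE, edgeR adjusted p 0.000256). IFIT3 (ENSG00000119917, chromosome 10, 89327894 to 89340971, plus strand), which stabilises IFIT1 on RNA, was at 11.6 and 9.27 FPKM in the controls and 3.63 and 3.93 FPKM with REEP6 (log2 fold change -1.44 ± 0.165 SE, edgeR adjusted p 0.000701). IFIT1 (ENSG00000185745, chromosome 10, 89392546 to 89406486, plus strand), which recognises cap structures that lack methylation, was at 2.9 and 3.42 FPKM in the controls and 1.72 and 1.66 FPKM with REEP6 (log2 fold change -0.88 ± 0.177 SE, edgeR adjusted p 0.00735). The groups did not overlap for any of them, though the IFIT3 controls differed from each other. IFIT5 (ENSG00000152778, chromosome 10, 89414586 to 89421001, plus strand), the last gene of the cluster, was at 1.88 and 2.44 FPKM in the controls and 2.11 and 2.88 FPKM with REEP6, and its groups overlapped (log2 fold change 0.23 ± 0.219 SE, edgeR adjusted p 0.479). Whether IFIT5 differs from its neighbours in response was not tested.

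Oligoadenylate synthetases make the second messenger that activates RNase L. Among the members of this family OAS3 rose and OASL fell, and OAS1 and OAS2 were below the filter. OAS3 (ENSG00000111331, chromosome 12, 112938352 to 112973249, plus strand), the largest of them, was at 1.31 and 1.25 FPKM in the controls and 2.06 and 1.97 FPKM with REEP6 (log2 fold change 0.68 ± 0.157 SE, edgeR adjusted p 0.0129). Both REEP6 libraries were above both controls. OASL (ENSG00000135114, chromosome 12, 121019111 to 121039242, minus strand), an inactive relative that enhances RIG-I signalling, went the other way, at 4.09 and 4.32 FPKM in the controls and 1.55 and 1.95 FPKM with REEP6 (log2 fold change -1.24 ± 0.187 SE, edgeR adjusted p 0.002). OAS1 and OAS2 flank OAS3 on chromosome 12 within 105 kb and did not reach the filter. OAS1 had counts of 28 and 44 (control) and 16 and 23 (REEP6), and OAS2 had counts of 5 and 11 (control) and 1 and 1 (REEP6). In a fit without a filter a difference was not detectable for either (edgeR adjusted p 0.235 and 0.155). Whether they move against OAS3 is thus not settled by these counts. The OAS3 rise held without any one library (log2 fold change 0.64 to 0.72). It did not pass in limma fits on log2(FPKM + 1) (limma adjusted p 0.085), on log2(FPKM + 0.1) (0.0873) and after quantile normalization (0.0651).

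SAMD9 and SAMD9L, neighbours on chromosome 7 that restrict viral replication and cell growth, fell together. SAMD9 (ENSG00000205413, chromosome 7, 93099513 to 93118023, minus strand) was at 8.84 and 8.5 FPKM in the controls and 3.52 and 3.19 FPKM with REEP6 (log2 fold change -1.34 ± 0.105 SE, edgeR adjusted p 0.000126). SAMD9L (ENSG00000177409, chromosome 7, 93130055 to 93148369, minus strand) was at 3.95 and 3.69 FPKM in the controls and 1.18 and 0.759 FPKM with REEP6, a fall of 3.87-fold (log2 fold change -1.95 ± 0.203 SE, edgeR adjusted p 0.00048). Its REEP6 libraries differed, and the log2 fold change was -2.31 without REEP6 replicate 1 and -1.66 without REEP6 replicate 2. Neither gene shares a 50-base word with another gene.

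ISG15 is a ubiquitin-like protein that is joined to target proteins after infection, and its own gene was not called while a ligase gene fell. ISG15 (ENSG00000187608, chromosome 1, 1001138 to 1014540, plus strand), the second most abundant member, was at 39 and 41.3 FPKM in the controls and 27 and 37.5 FPKM with REEP6. The groups did not overlap, but REEP6 replicate 2 lay close to the controls (log2 fold change -0.29 ± 0.149 SE, edgeR adjusted p 0.177), and without that library the log2 fold change was -0.54 (edgeR adjusted p 0.018). HERC5 (ENSG00000138646, chromosome 4, 88457117 to 88506163, plus strand), the ligase that attaches ISG15, was at 2.12 and 2.22 FPKM in the controls and 0.935 and 1.07 FPKM with REEP6, below the controls in both REEP6 libraries (log2 fold change -1.09 ± 0.201 SE, edgeR adjusted p 0.00501). HERC6, beside it on chromosome 4, had counts of 47 and 58 (control) and 25 and 34 (REEP6) and did not reach the filter. UBE2L6, the conjugating enzyme for ISG15, was at 3.86 and 2.84 FPKM in the controls and 5.12 and 4.52 FPKM with REEP6 (log2 fold change 0.56 ± 0.209 SE, edgeR adjusted p 0.0781), and without control replicate 1 it passed (log2 fold change 0.78, edgeR adjusted p 0.0291). USP18, which removes ISG15 and damps receptor signalling, was at 1.02 and 1.3 FPKM in the controls and 1.38 and 0.671 FPKM with REEP6, with overlapping groups (log2 fold change -0.15 ± 0.414 SE, edgeR adjusted p 0.824). It shares 23.4% of its words with other genes, mainly USP41.

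IFI44 (ENSG00000137965, chromosome 1, 78649796 to 78664078, plus strand), a cytoplasmic protein induced in hepatitis, was at 6.11 and 4.55 FPKM in the controls and 1.78 and 1.36 FPKM with REEP6, a fall of 3.31-fold (log2 fold change -1.73 ± 0.249 SE, edgeR adjusted p 0.0017). Both REEP6 libraries were far below both controls. IFI44L, its neighbour on chromosome 1, had counts of 26 and 49 (control) and 14 and 7 (REEP6) and did not reach the filter. SP100 (ENSG00000067066, chromosome 2, 230415942 to 230544090, plus strand), a scaffold of PML nuclear bodies, was at 2.58 and 2.69 FPKM in the controls and 1.61 and 1.59 FPKM with REEP6 (log2 fold change -0.69 ± 0.12 SE, edgeR adjusted p 0.00374), and its call ended only after quantile normalization (limma adjusted p 0.0665). IFI6, an inhibitor of apoptosis, was at 6.2 and 6.01 FPKM in the controls and 3.49 and 4.43 FPKM with REEP6 and was not called (log2 fold change -0.59 ± 0.259 SE, edgeR adjusted p 0.121), though it passed as lower with limma on log2(FPKM + 1) and on log2(FPKM + 0.1) (limma adjusted p 0.0477 and 0.0499). IFI35 had a log2 fold change of -0.01 ± 0.185 SE.

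**Figure D4:**
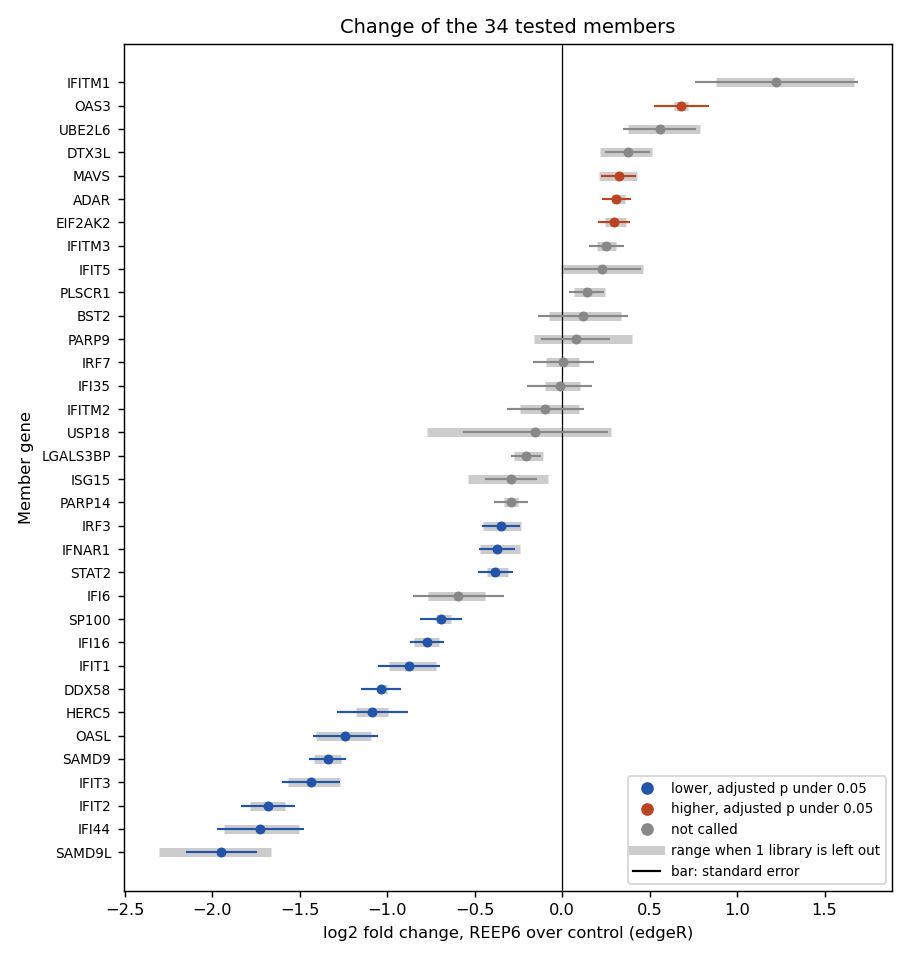
Log2 fold change of the 34 tested members, REEP6 over control, with standard errors as bars and the range over fits without 1 library as grey bands. Blue is lower, red is higher and grey is not called. The 14 members that fell, from IRF3 (-0.35) to SAMD9L (-1.95), stay below 0 with each library left out in turn, and IFITM1 has the highest value (1.22), with the widest error among the members above 0.

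The IFITM proteins block fusion of viral membranes and BST2 tethers budding virions. None of these 4 members was called by edgeR, DESeq2 or limma on log2(FPKM + 1), though DESeq2 gave IFITM1 no adjusted p. At an unadjusted edgeR p under 0.05 there were 2, both of them higher. Among all tested genes edgeR called 14.2% lower and 10.9% higher. IFITM3 (ENSG00000142089, chromosome 11, 319669 to 327537, minus strand), the fourth most abundant member, was at 27.4 and 28.3 FPKM in the controls and 33.6 and 31.5 FPKM with REEP6 (log2 fold change 0.25 ± 0.1 SE, edgeR adjusted p 0.0935). IFITM1 was at 1.08 and 0.609 FPKM in the controls and 1.89 and 1.95 FPKM with REEP6 (log2 fold change 1.22 ± 0.465 SE, edgeR adjusted p 0.0816), on counts of 15 and 10 (control) and 27 and 28 (REEP6). IFITM2 had a log2 fold change of -0.10 ± 0.221 SE and BST2 of 0.12 ± 0.257 SE. The 3 IFITM genes lie within 19.9 kb on chromosome 11. Between 32% and 35.2% of the 50-base words of each also occur in other genes, those of IFITM1 and IFITM2 mostly in each other, so their separate values are uncertain.

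PARP9 and DTX3L form a complex that modifies histones and lie head to head, with PARP14 nearby on chromosome 3. None of the 3 was called by edgeR, DESeq2 or limma on log2(FPKM + 1), and 1 was lower and 1 higher at an unadjusted edgeR p of 0.05. Among all tested genes edgeR called 14.2% lower and 10.9% higher. PARP14, an ADP-ribosyltransferase, was at 4.91 and 4.67 FPKM in the controls and 3.71 and 3.95 FPKM with REEP6 (log2 fold change -0.29 ± 0.0973 SE, edgeR adjusted p 0.0532). It passed as lower with library totals (-0.32, edgeR adjusted p 0.0411) and with equal FPKM sums (-0.42, 0.0145). DTX3L, a ubiquitin ligase, was at 4.53 and 4.58 FPKM in the controls and 5.18 and 6.42 FPKM with REEP6 (log2 fold change 0.37 ± 0.131 SE, edgeR adjusted p 0.0632), and it passed when REEP6 replicate 1 was left out (0.51, edgeR adjusted p 0.0268) and after correction for GC content (0.47, 0.0369). PARP9 was at 1.22 and 1.76 FPKM in the controls and 1.58 and 1.51 FPKM with REEP6, with overlapping groups (log2 fold change 0.08 ± 0.196 SE, edgeR adjusted p 0.814). The ends of PARP9 and DTX3L overlap on opposite strands, as do those of CMPK2 and RSAD2. Whether counting used strand is not given in the sources used here. Reads from those stretches may thus be assigned to either gene.

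LGALS3BP (ENSG00000108679, chromosome 17, 78971238 to 78980109, minus strand), a secreted glycoprotein that binds galectins, was the most abundant member, at 68.8 and 75.8 FPKM in the controls and 59.6 and 63.4 FPKM with REEP6 (log2 fold change -0.21 ± 0.0881 SE, edgeR adjusted p 0.112). The REEP6 libraries were below the controls, and the difference passed with equal FPKM sums (-0.34, edgeR adjusted p 0.0223). PLSCR1 (ENSG00000188313, chromosome 3, 146515180 to 146544864, minus strand), a phospholipid scramblase with antiviral activity, was at 10.3 and 11.4 FPKM in the controls and 11.9 and 11.6 FPKM with REEP6 (log2 fold change 0.14 ± 0.0995 SE, edgeR adjusted p 0.336), and it passed as higher after correction for GC content (0.33, edgeR adjusted p 0.0408). By mean level over the 4 libraries the order continued from LGALS3BP (66.9 FPKM) through ISG15 (36.2), ADAR (35.4), IFITM3 (30.2) and IRF3 (23.7) to MAVS (13.3), PLSCR1 (11.3) and IFI16 (10.5). Neighbours such as ISG15 and ADAR were not separated, since the libraries ranged from 27 to 41.3 FPKM for ISG15 and from 30.8 to 39.1 FPKM for ADAR. Of these 8 members above 10 FPKM, IRF3 and IFI16 fell and ADAR and MAVS rose.

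Several genes that serve as standard reporters of an interferon response were barely detected. The 15 members below the filter had at most 88 counts in a library. XAF1, a proapoptotic partner of XIAP, had 0 counts in each library, which allows up to 0.233 CPM in a library, and 34.7% of its words are shared with PRAL. MX1, a dynamin-like GTPase that blocks influenza virus, had counts of 3 and 1 (control) and 3 and 5 (REEP6). RSAD2, which encodes viperin, had counts of 6 and 10 (control) and 2 and 5 (REEP6), IFI27 had 10 and 2 (control) and 8 and 9 (REEP6), and MX2 had 14 and 6 (control) and 6 and 4 (REEP6). CMPK2, a mitochondrial nucleotide kinase read from the opposite strand beside RSAD2, had 19 and 19 (control) and 20 and 30 (REEP6), and the exonuclease gene ISG20 had 13 and 25 (control) and 25 and 14 (REEP6). In a fit without a filter, 14 of the 15 could be fitted, and for 12 of these a difference was not detectable at this depth. IFIH1 (log2 fold change -0.88 ± 0.289 SE, edgeR adjusted p 0.0201) and IFI44L (-1.68 ± 0.443 SE, 0.00213) were lower and 0 were higher. That fit covered 29161 genes, of which 6.95% were lower and 6.8% higher, and called 16 of 48 members lower and 6 higher.

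**Figure D5:**
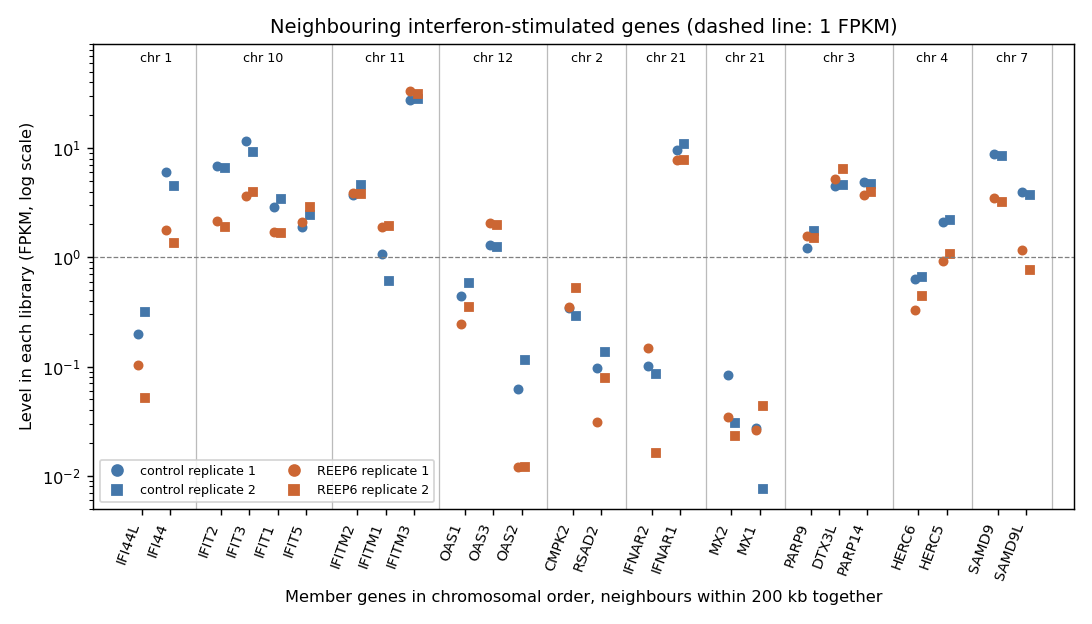
Levels in each library (FPKM, log axis) of the 25 members that lie within 200 kb of another member, in chromosomal order, with vertical lines between the 10 clusters. Blue is control, orange is REEP6, circles are replicate 1 and squares replicate 2, and the dashed line marks 1 FPKM. All but the last gene of the IFIT cluster and both SAMD9 genes are lower with REEP6, OAS3 is higher with REEP6 between OAS1 and OAS2, which were not tested, and IFNAR2 lies near 0.1 FPKM beside IFNAR1 near 9 FPKM.

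JAK1, JAK2 and other signalling genes outside the member list fell. Of 17 genes for other receptor chains, kinases, transcription factors and inhibitors, 14 were tested, 4 were lower and 1 was higher, beside 14.2% and 10.9% of all genes, with a median log2 fold change of -0.19. JAK1, a kinase of the type I receptor, was at 15.7 and 15.2 FPKM in the controls and 10.4 and 10.1 FPKM with REEP6 (log2 fold change -0.56 ± 0.0878 SE, edgeR adjusted p 0.00232), and its partner TYK2 had a log2 fold change of -0.35 ± 0.0965 SE. IFNGR1, the ligand-binding chain of the interferon gamma receptor, fell by 0.60 on the log2 scale and JAK2, its kinase, by 0.73. SOCS3, a feedback inhibitor of JAK kinases, was the gene that rose (log2 fold change 0.55 ± 0.163 SE, edgeR adjusted p 0.0364). With DESeq2 and with limma on log2(FPKM + 1) 0 genes of this list were higher, against 3 at an unadjusted edgeR p of 0.05. Among all 13077 tested genes 1186 were higher with DESeq2 and 634 with limma.

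Genes that lead from sensing to interferon production went both ways, with 3 of 12 tested lower and 2 higher of 15 listed, beside 14.2% and 10.9% of all genes, and a median log2 fold change of -0.01. With DESeq2, and likewise with limma on log2(FPKM + 1), 2 were lower and 1 was higher. All 13077 tested genes gave 1375 lower and 1186 higher with DESeq2, and 1272 and 634 with limma. TBK1, the kinase that phosphorylates IRF3, was at 8.93 and 8.96 FPKM in the controls and 5.89 and 5.79 FPKM with REEP6 (log2 fold change -0.59 ± 0.104 SE, edgeR adjusted p 0.00407), and TANK, an adaptor of TBK1, fell by 0.33 on the log2 scale. TAX1BP1, which limits antiviral signalling, fell by 0.78. TRIM25, the ubiquitin ligase that activates RIG-I, was at 4.73 and 4.15 FPKM in the controls and 7.31 and 6.43 FPKM with REEP6 (log2 fold change 0.66 ± 0.111 SE, edgeR adjusted p 0.00325), and TRAF3, the ligase between MAVS and TBK1, rose by 0.32. The DNA sensor gene CGAS (0.09 ± 0.243 SE) and TMEM173, which encodes STING (0.34 ± 0.141 SE), were not called.

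Outside the member list, 43 interferon-stimulated genes were also read. Of these 26 were tested, 7 were lower and 3 higher, beside 14.2% and 10.9% of all genes, with a median log2 fold change of -0.04, beside -0.01 over all tested genes. TNFSF10, which encodes the death ligand TRAIL, had counts of 55 and 59 (control) and 2 and 7 (REEP6) (log2 fold change -3.53 ± 0.503 SE, edgeR adjusted p 0.00164). CXCL10, a T cell chemokine, was at 3.17 and 3.41 FPKM in the controls and 1.16 and 0.767 FPKM with REEP6 (log2 fold change -1.74 ± 0.365 SE, edgeR adjusted p 0.00871), and DDX60, a helicase that supports RIG-I, was at 1.53 and 2.28 FPKM in the controls and 0.75 and 0.824 FPKM with REEP6 (log2 fold change -1.25 ± 0.233 SE, edgeR adjusted p 0.00506). Both TNFSF10 and DDX60 reached 1 FPKM in the controls only, so they entered the test only through the group in which they were high. Both are among the 7 counted as lower. In the fit without a filter their log2 fold changes were -3.51 and -1.24 (edgeR adjusted p 4.57e-12 and 3.8e-07). HELZ2, a nuclear receptor coactivator, rose by 0.68 and CNP by 0.57 on the log2 scale. With limma on log2(FPKM + 1), 3 genes of this list were lower and 0 higher, against 5 and 3 with DESeq2 and 9 and 4 at an unadjusted edgeR p of 0.05. All 13077 tested genes gave 1272 lower and 634 higher with limma, and 1375 and 1186 with DESeq2.

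The members that fell had a lower median GC content than all tested genes. The median over their GENCODE transcripts was 42% for the 14 members that fell and 49% for all tested genes. It was 50.9% for the 4 members that rose and 56% for the 16 that were tested and not called. The part of GC content in these calls was not tested. With each library corrected for GC content, 13 members were lower and 5 higher. Still lower were DDX58, IFI16, IFI44, HERC5, OASL, SP100, STAT2, IRF3, both SAMD9 genes and the 3 IFIT genes that fell. The median log2 fold change was then -0.22 over the members and 0.03 over all tested genes. The sizes of single falls depended on the fit. In the weakest of the alternatives below, DDX58 was at -0.80, IFI16 at -0.53 and SAMD9 at -0.99, against -1.04, -0.77 and -1.34 in the main fit. Mitochondrial transcripts made up 3.9% and 5.44% of control counts and 5.81% and 6.02% of REEP6 counts, and leaving these and the 100 most abundant genes out of the scaling gave the same counts of 14 lower and 4 higher.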

How the data were processed

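Polyadenylated RNA of 2 control and 2 REEP6 libraries was sequenced. The authors deposited, for each library, raw read counts per gene and FPKM, which are those counts scaled by gene length and library total. The submitters' processing notes list HISAT2, HTSeq 0.13.5 and GRCh38, without roles. How reads that match several genes were counted is not given in the sources used here. Groups came from the labels. The members and lists were chosen with earlier results of these data known.

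Counts were tested with edgeR 4.0.16 (R 4.3.3; TMM, quasi-likelihood with an abundance trend, two-sided, no covariate) over all 13077 genes at 1 FPKM in at least 2 libraries, p-values adjusted by Benjamini-Hochberg and called at 0.05, after tests on simulated data. The common biological coefficient of variation was 9.35% on 2 residual degrees of freedom. Alternatives were DESeq2 1.42.0, limma 3.58.1 on log2(FPKM + 1), other scalings and filters, a GC correction and leaving out each library. Counts at an unadjusted p stand without the share of all genes at that cutoff, so no list is compared on them. Coordinates are GENCODE 29 (GRCh38) and promoter windows RefSeq (GRCh38.p14). Library totals of 12856256 to 15208629 counts make 3 counts, the limit that a count of 0 allows, equal to 0.197 to 0.233 CPM, for counting error only.

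Called members, and uncalled ones with a mean of at least 10 FPKM, are given in every library, members below the filter by counts, and up to 5 called genes of each pathway list with the smallest p by name. Values of other uncalled members, and of IL10RB, IFNE, SOCS3, CGAS, TMEM173 and single marker genes, were added after they were seen. Shared sequence was measured as distinct 50-base words of GENCODE transcripts that also occur in another gene. One listed gene that is no member is not reported here and is left out of the list counts.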

Additional observations from a re-analysis of the deposited data

How the results depend on the processing

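The members were refitted under 22 alternatives. Of the 18 called members, 10 (DDX58, HERC5, IFI16, IFI44, IFIT1, IFIT2, IFIT3, OASL, SAMD9 and SAMD9L) kept their call in every alternative that tested them, and none of the 18 changed direction. The number of higher members moved from 4 to 2 with library totals and without an abundance trend, to 1 with equal FPKM sums and at a minimum of 5 FPKM, to 0 in each of the limma fits, on log2(FPKM + 1), on log2(FPKM + 0.1) and after quantile normalization, and to 0 at an adjusted p of 0.01. Leaving out 1 library gave 1 to 5 higher and 12 to 13 lower members. The number of lower members moved from 14 to 8 at a minimum of 5 FPKM, where 18 members were tested. The median log2 fold change of the members, -0.25, was -0.38 with equal FPKM sums, -0.30 without a filter, -0.34 at a minimum of 5 FPKM, -0.31 with filterByExpr, and -0.27 to -0.17 without 1 library, the latter without control replicate 2.

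Same-numbered libraries of the 2 groups deviated together (r = 0.27 over 13077 genes), which with 2 pairs does not show that they are pairs. With the replicate number as a block, 17 members were lower and 8 higher, beside 3062 and 2957 of all genes. With the block and a GC correction together, an alternative chosen after seeing the data, the members' counts were again 17 and 8. Over all genes, 1854 lower and 1422 higher became 1272 and 634 with limma on log2(FPKM + 1), 1233 and 597 on log2(FPKM + 0.1), 903 and 643 after quantile normalization, 897 and 495 at an adjusted p of 0.01, 1140 and 1207 with a GC correction, 2319 and 2918 with that correction and the block, and 2824 and 661 with equal FPKM sums. Without REEP6 replicate 1 they were 1272 and 940, and with a minimum of 5 FPKM 1411 and 936.

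Of the uncalled members, 7 changed sign in at least 1 alternative, and the cause was not tested. Their log2 fold changes in the main fit ran from -0.15 (USP18) to 0.23 (IFIT5). IRF7, at 0.01, was -0.021 with library totals, -0.018 and -0.022 with limma on log2(FPKM + 1) and log2(FPKM + 0.1), -0.12 with equal FPKM sums, -0.058 with a GC correction, -0.062 with that and the block, and -0.090 to 0.098 without 1 library. PARP9 was -0.050 with equal FPKM sums and -0.16 to 0.40 without 1 library. BST2 was -0.017 with equal FPKM sums, -0.0022 with a GC correction, -0.0056 with that and the block, and -0.074 to 0.33 without 1 library. IFI35 was 0.0013 without a filter, 0.038 after quantile normalization, 0.0021 without mitochondrial and the 100 most abundant genes, and -0.096 to 0.10 without 1 library. The range without 1 library was -0.77 to 0.28 for USP18, -0.24 to 0.094 for IFITM2 and -0.0058 to 0.46 for IFIT5. With 2 libraries a group, calls of small changes ended without single libraries, and members below 1 FPKM are limited by depth.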
